A study of Mus musculus with 4 samples.

Results

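Purinergic signalling genes were examined in B cells sorted from cervical lymph nodes, which receive lymph from the salivary glands, of NOD.B10 mice and of BL/10 control mice. The genes were 10 rows of the deposited table of 23418 gene symbols, picked by name: the ATP-gated channel genes P2rx7, P2rx4 and P2rx1, the nucleotide receptor genes P2ry12 and P2ry14, the ectoenzyme genes Entpd1 (CD39), Nt5e (CD73) and Cd38, the adenosine receptor gene Adora2a, and Ada, which encodes adenosine deaminase. NOD.B10 mice have the NOD genome, which is prone to autoimmunity, with the major histocompatibility haplotype of C57BL/10. They serve as a model of Sjögren's disease, and BL/10 is the control genotype. Each genotype had 2 RNA-seq libraries of sorted cells, all untreated as far as the labels say, with total counts of 19328803 to 29372751 reads. Age and sex, and whether libraries came from separate animals, are not given in the sources used here, so each p-value reflects the spread of these 4 libraries alone, part of which may be technical.

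ATP released from stressed or dying cells opens P2X channels and activates P2Y receptors. CD39 cuts ATP and ADP to AMP, CD73 cuts AMP to adenosine, and adenosine acts through G protein-coupled receptors such as that encoded by Adora2a, which raises cyclic AMP and restrains lymphocytes. Adenosine deaminase ends that signal by turning adenosine into inosine, while CD38 consumes NAD, a substrate that ADP-ribosyltransferases of mouse T cells otherwise use to open P2X7.

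The gene for the adenosine-making enzyme CD73 was lower in the sorted NOD.B10 cells, and the gene for the adenosine-removing enzyme was higher. Nt5e fell to 4.89 ± 0.394 CPM in NOD.B10, against 12.8 ± 2.15 CPM in BL/10 (SD, n = 2 each), and Ada rose to 24.6 ± 7.09 CPM in NOD.B10, against 13.9 ± 2.45 CPM in BL/10. The scarce channel gene P2rx1 was also lower, at 0.182 ± 0.0358 CPM in NOD.B10 and 1.00 ± 0.209 CPM in BL/10. The calls of Ada and P2rx1 depended on the settings, as given below, while that of Nt5e did not. All 13 T cell markers tested were lower in NOD.B10, and their part in the Nt5e and Ada levels was not tested. Outside the 10 genes, Acpp, whose enzyme can also make adenosine from AMP, was higher, and the adenosine clearance genes Slc28a2 and Pnp were lower. The abundant genes Cd38, Entpd1 and P2rx4 were not called in either direction. CPM here are counts per 1000000 reads over library sizes scaled by the TMM method.

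Of the 10 genes, 9 had enough reads to be tested. Of those, 1 was called higher (Ada) and 2 lower (Nt5e and P2rx1), with 6 not called, at an adjusted p under 0.05 (edgeR quasi-likelihood test, Benjamini-Hochberg adjustment over all genes tested). The same rule called 15.2% of all 13075 genes, with 6.55% higher in NOD.B10 and 8.63% lower. The log2 fold changes, always NOD.B10 over BL/10, had a median of −0.48 over the 9 genes, beside −0.0032 over all genes. The 2 NOD.B10 libraries lay wholly above or wholly below the 2 BL/10 libraries for 8 of the 9 genes, a separation that held for 55.6% of all genes tested.

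**Figure D1:**
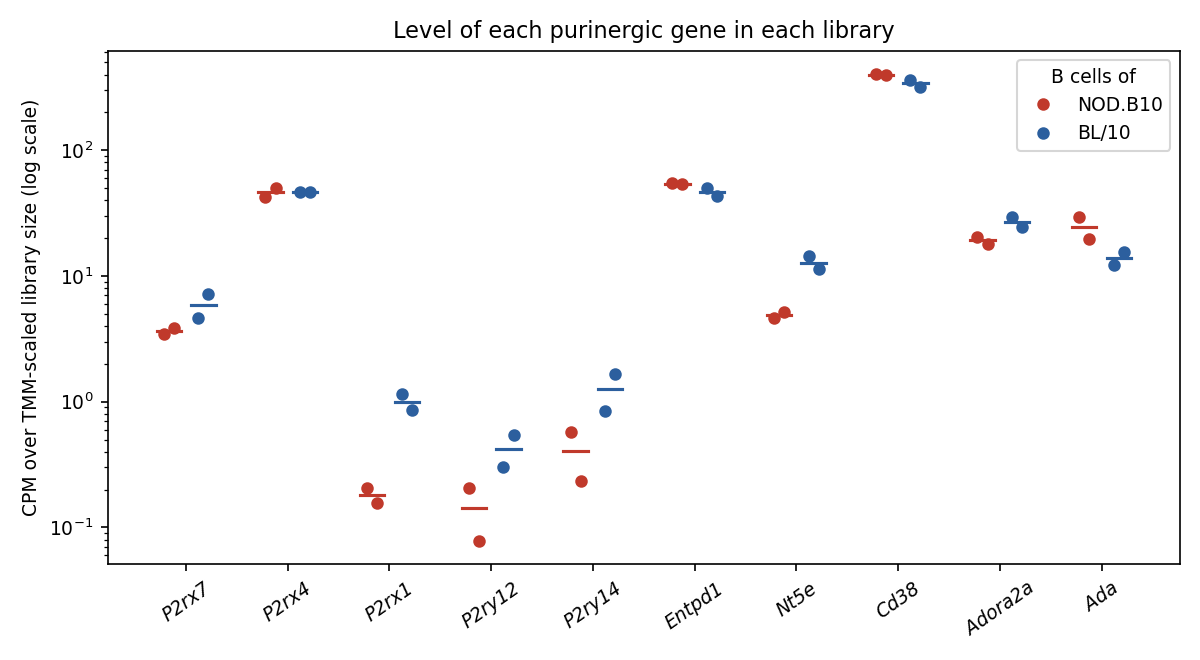
Level of each of the 10 genes in each library, in CPM over TMM-scaled library sizes on a log axis. Points are libraries, with NOD.B10 left of BL/10, and short lines are means of 2 libraries. Nt5e and P2rx1 sit lower and Ada higher in NOD.B10, while the P2rx4 points of the 2 strains overlap.

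The regions around the starts of the 3 called genes are shown, as RefSeq windows of GRCm38.p6 that run from 250 bases before to 50 bases after the annotated start, read 5′ to 3′ on the strand of the gene. Capitals mark the GC box GGGCGG on either strand, a motif bound by Sp1-type factors. Nt5e lies on the plus strand at chr9:88327359-88327658, P2rx1 on the plus strand at chr11:72998895-72999194, and Ada on the minus strand at chr2:163750190-163750489. The start used for the P2rx1 window lies downstream of the P2rx1 gene start given below, 72999056, which is still inside the window.
Nt5e: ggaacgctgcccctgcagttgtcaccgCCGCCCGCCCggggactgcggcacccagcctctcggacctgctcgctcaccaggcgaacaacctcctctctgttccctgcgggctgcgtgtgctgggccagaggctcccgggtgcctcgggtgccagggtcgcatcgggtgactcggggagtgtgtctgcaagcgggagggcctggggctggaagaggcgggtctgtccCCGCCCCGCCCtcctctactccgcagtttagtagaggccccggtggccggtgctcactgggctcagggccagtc
P2rx1: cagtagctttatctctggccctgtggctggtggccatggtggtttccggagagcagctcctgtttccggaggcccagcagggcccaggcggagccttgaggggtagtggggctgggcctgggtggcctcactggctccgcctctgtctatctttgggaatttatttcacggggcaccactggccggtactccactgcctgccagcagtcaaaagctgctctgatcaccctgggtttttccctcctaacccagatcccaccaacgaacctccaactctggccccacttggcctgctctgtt
Ada: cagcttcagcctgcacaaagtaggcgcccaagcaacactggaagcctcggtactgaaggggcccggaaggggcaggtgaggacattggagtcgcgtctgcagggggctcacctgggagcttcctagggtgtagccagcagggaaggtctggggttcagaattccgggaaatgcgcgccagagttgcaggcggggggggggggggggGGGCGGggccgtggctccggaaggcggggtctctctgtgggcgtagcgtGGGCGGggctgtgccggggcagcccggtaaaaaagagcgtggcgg
The GC box matched at 4 places in the Nt5e window, where neighbouring matches overlap, at 2 places in the Ada window and at 0 places in the P2rx1 window. It occurred in 35.7% of the 32851 RefSeq windows of this kind. The TATA box TATAAA, in 13.6% of all windows, matched in none of these 3 windows on either strand. The windows were 71.0%, 60.7% and 68.0% G and C for Nt5e, P2rx1 and Ada, beside a median of 52.7% over all windows. Matches of this kind describe the letters only, and 9 of the 10 genes had a window in the table.

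The first step of ATP breakdown was not called different between the strains. Entpd1 (chromosome 19, 40612366 to 40741602) encodes CD39, which removes phosphates from ATP and ADP at the cell surface. Its level was 55.0 and 53.5 CPM in the NOD.B10 libraries and 50.01 and 43.2 CPM in the BL/10 libraries. Both NOD.B10 values were above both BL/10 values, by a margin small beside the spread within BL/10. The log2 fold change was 0.22 (SE 0.129, adjusted p = 0.318 by the edgeR test).

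The second step was lower. Nt5e (chromosome 9, 88327609 to 88372089) encodes CD73, the surface 5′-nucleotidase that makes adenosine from AMP. It had 4.61 and 5.17 CPM in the NOD.B10 libraries, from 89 and 132 reads, against 14.3 and 11.3 CPM in the BL/10 libraries, from 424 and 291 reads. Both NOD.B10 libraries lay below both BL/10 libraries without overlap, and the gap between strains exceeded the spread within either. The fall was 2.61-fold, a log2 fold change of −1.39 (SE 0.246, edgeR adjusted p = 0.00179). This call was kept in all 12 alternative settings, with log2 fold changes from −1.55 to −1.20 and adjusted p up to 0.0132.

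CD73 is also found on T cells, above all regulatory T cells, and on B cell subsets. Markers of these cells differed between the strains, and their part in the fall of Nt5e was not tested. In bulk RNA, fewer cells of a type and less RNA per cell cannot be told apart. All 13 T cell markers tested were lower in NOD.B10, where they summed to 51.8 and 53.2 CPM, against 460 and 538 CPM in BL/10. Most of the NOD.B10 sum was Lck, at 38.3 and 45.9 CPM in NOD.B10 and 64.4 and 75.6 CPM in BL/10. Lck was 1.66-fold lower, so the sums understate the fall of the other markers. Cd3e, a chain of the T cell receptor complex, had 24 and 8 reads in NOD.B10 and 1274 and 1531 reads in BL/10. Of the 7 regulatory and helper T cell markers, 5 were lower. Apart from Cxcr5, which B cells express too, these 7 summed to 9.12 and 6.30 CPM in NOD.B10 and to 51.0 and 67.1 CPM in BL/10. The 10 markers of marginal zone and B-1 cells summed to 431 and 453 CPM in NOD.B10 and 694 and 656 CPM in BL/10. Of these, 7 were lower: Myof, Cd9, Cd5, Bhlhe41, Zbtb32, Spn and Plac8. The 1 higher was S1pr3 (log2 fold change 0.94), and Cd1d1 and Dtx1 were not called, so the list did not move together. T cells express Cd5 and Spn too, and whether the falls of these 2 came from B cells or T cells was not tested. The 10 B cell markers were all detected in every library and summed to 10329 and 10954 CPM in NOD.B10 and to 9373 and 9557 CPM in BL/10, with 1 called higher and 0 lower.

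**Figure D2:**
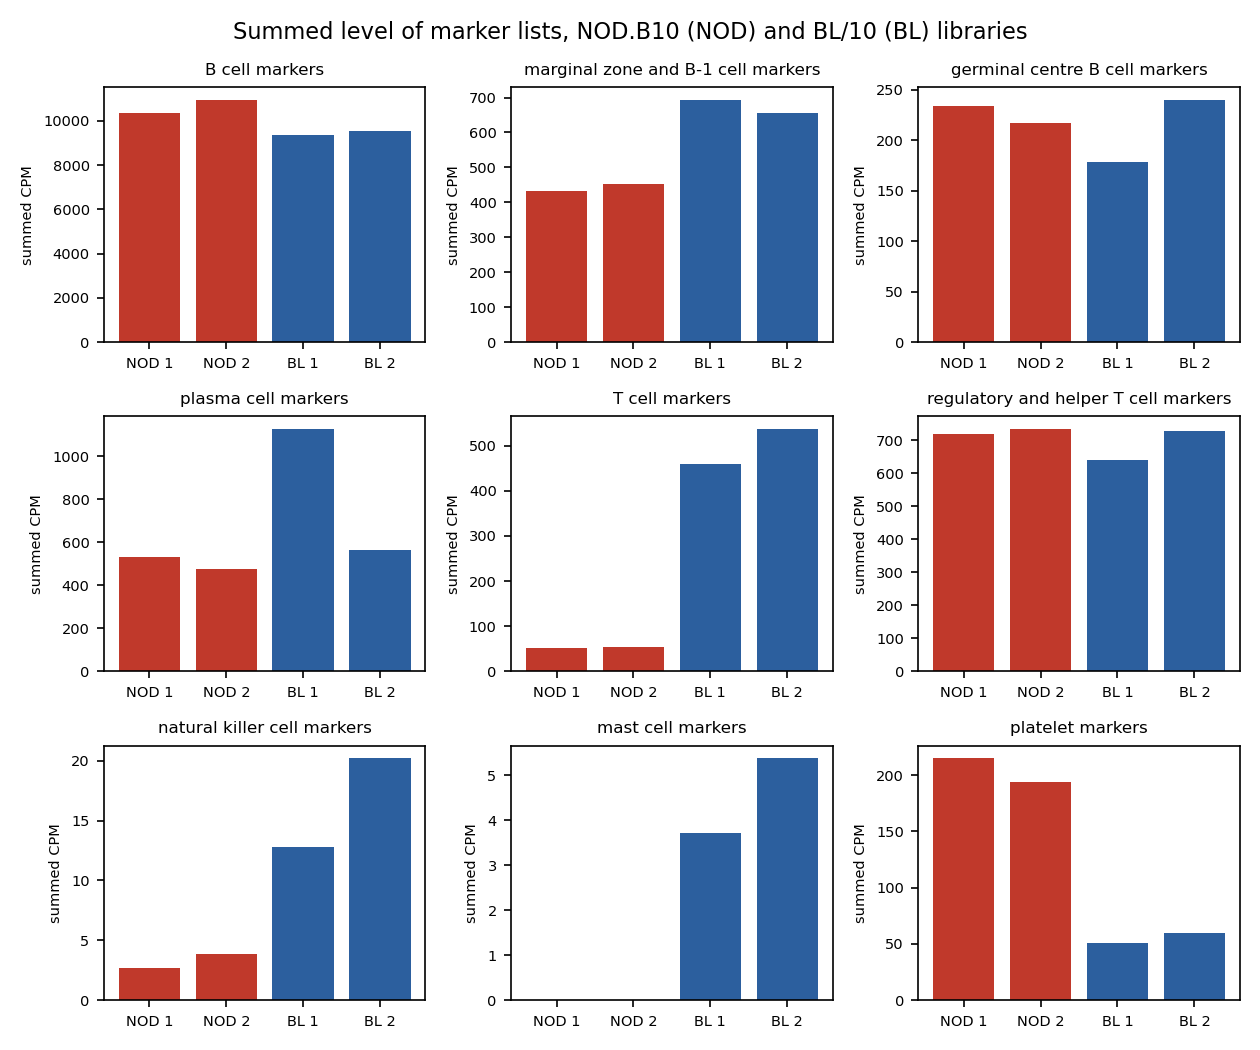
Summed CPM of 9 marker lists in the 2 NOD.B10 libraries (NOD, red) and the 2 BL/10 libraries (BL, blue), on linear axes from 0 that differ between panels. T cell markers stand at 51.8 and 53.2 CPM in NOD.B10 and at 460 and 538 CPM in BL/10, mast cell markers at 0 in NOD.B10, and B cell markers are alike in scale in all 4 libraries. Of the T cell sums, Lck gave 38.3 and 45.9 CPM in NOD.B10 and 64.4 and 75.6 CPM in BL/10.

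Cd38 was the most abundant of the 10 genes and differed little between the strains. Cd38 (chromosome 5, 43868809 to 43912374) encodes the surface enzyme that splits NAD and makes cyclic ADP-ribose, and mouse follicular B cells carry much of it. It had 404 and 395 CPM in the NOD.B10 libraries and 366 and 318 CPM in the BL/10 libraries. Both NOD.B10 values were higher, but the BL/10 libraries differed from each other by more than the nearest values of the 2 strains did. The log2 fold change was 0.23 (SE 0.105, edgeR adjusted p = 0.191). Without the first BL/10 library it was 0.33 and passed the test (adjusted p = 0.0284). That library had 608 CPM of the plasma cell gene Igj, which encodes the immunoglobulin J chain, against 119 CPM in the other BL/10 library and 14.04 and 7.20 CPM in NOD.B10. Of the 6 plasma cell markers 2 (Prdm1 and Tnfrsf17) were lower in NOD.B10, and 4 were not called. Without Igj the list summed to 517 and 467 CPM in NOD.B10 and to 519 and 445 CPM in BL/10. Most of that was Irf4, at 388 and 334 CPM in NOD.B10 and 351 and 327 CPM in BL/10, and Xbp1, neither of them called. Prdm1 had 4.66 and 4.54 CPM in NOD.B10 and 14.7 and 7.29 CPM in BL/10. Sdc1 had 5.34 and 5.29 CPM in NOD.B10 and 19.8 and 7.94 CPM in BL/10. Tnfrsf17 had 0 and 1 reads in NOD.B10 and 35 and 14 reads in BL/10. The part of plasma cells in the Cd38 level was not tested. Germinal centre B cells of the mouse lose CD38, and of 8 markers of that state 1 (Mki67, a proliferation gene) was lower and 7 were not called.

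Of the ATP-gated channels, P2rx4 was the main one by level and did not separate the strains. P2rx4 (chromosome 5, 122707518 to 122729739) encodes a channel that is found largely on lysosomes in immune cells. Its level was 42.5 and 49.9 CPM in NOD.B10 and 46.7 and 46.6 CPM in BL/10. The NOD.B10 values lay on either side of the BL/10 values. The log2 fold change was −0.011 (SE 0.133, edgeR adjusted p = 0.971).

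P2rx7 (chromosome 5, 122643927 to 122692336) encodes the low-affinity channel that high ATP opens and that triggers the inflammasome in macrophages and shedding of surface proteins in lymphocytes. It starts upstream of P2rx4 on the same strand, with a gap of 16111 bases between the genes in GENCODE M21. P2rx7 stood at 3.47 and 3.88 CPM in the NOD.B10 libraries, against 4.63 and 7.13 CPM in the BL/10 libraries. The NOD.B10 libraries were close together and below both BL/10 libraries, which were far apart from each other. The difference missed the threshold (log2 fold change −0.67, SE 0.328, edgeR adjusted p = 0.213). As for Nt5e, all 13 T cell markers were lower in these NOD.B10 libraries, and their part in the P2rx7 level was not tested.

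P2rx1 (chromosome 11, 72999056 to 73015200) encodes a fast-desensitising channel known from platelets, mast cells and smooth muscle. It was near the limit of detection, with 4 and 4 reads in NOD.B10 and 34 and 22 reads in BL/10, or 0.207 and 0.157 CPM in NOD.B10 and 1.15 and 0.853 CPM in BL/10. The strains did not overlap. Summed over libraries, P2rx1 was 5.66-fold lower in NOD.B10. The 95% interval of that ratio, which covers counting error only, ran from 2.69 to 13.8. The fitted log2 fold change was −2.45 (SE 0.782), and the adjusted p of 0.0489 by the edgeR test was only just under the threshold. The call was lost in 9 of the 11 alternative settings that tested P2rx1, at adjusted p from 0.0515 to 0.343, among them each setting that left out 1 library.

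Mast cell and platelet markers were read beside P2rx1. All 6 mast cell markers, among them Kit and Cpa3, had 0 reads in NOD.B10, and they summed to 3.71 and 5.39 CPM in BL/10. The platelet genes Pf4, Ppbp and Gp6 had 0 reads in NOD.B10 and at most 8 reads in a BL/10 library. The 7 platelet markers summed to 215 and 194 CPM in NOD.B10 and to 50.8 and 59.3 CPM in BL/10. Most of this came from the integrin gene Itgb3, the 1 marker of the list called higher, at 195 and 183 CPM in NOD.B10 and 39.3 and 45.5 CPM in BL/10. Without Itgb3 the sums were 20.6 and 11.2 CPM in NOD.B10 and 11.5 and 13.8 CPM in BL/10. The part of either cell type in the P2rx1 level was not tested.

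The P2Y receptor genes P2ry14 and P2ry12 were scarce in both strains. P2ry14 (chromosome 3, 59114623 to 59153492) encodes the receptor for UDP-glucose, a sugar nucleotide that damaged cells release. It had 11 and 6 reads in the NOD.B10 libraries, against 25 and 43 reads in the BL/10 libraries, or 0.570 and 0.235 CPM in NOD.B10 and 0.844 and 1.67 CPM in BL/10. The strains did not overlap, but the libraries of each strain differed from each other by more than the nearest values of the 2 strains did. The log2 fold change was −1.66 (SE 0.728, edgeR adjusted p = 0.157), and the ratio of summed counts was 3.24-fold lower (95% counting interval 1.88 to 5.88). On leaving out 1 library the log2 fold change ranged from −2.40, when the first NOD.B10 library was dropped, to −1.09, when the second BL/10 library was dropped, and was not called in either case (adjusted p = 0.0852 and 0.615).

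P2ry12 (chromosome 3, 59216271 to 59262985), the ADP receptor of platelets and microglia, was the gene left out by the filter on low counts. It had 4 and 2 reads in NOD.B10 and 9 and 14 reads in BL/10, or 0.207 and 0.0783 CPM in NOD.B10 and 0.304 and 0.543 CPM in BL/10. The ratio of summed counts was 3.10-fold lower in NOD.B10 (95% counting interval 1.23 to 9.31). With no filter its log2 fold change was −1.57 (SE 1.38, edgeR adjusted p = 0.546). P2ry12 and P2ry14 both lie inside the body of Med12l, on the opposite strand, and P2ry12 shares 9 exonic bases with it in GENCODE M21. Since the strand setting of the counting is not given in the sources used here, reads from Med12l cannot be told apart at those bases. Med12l itself had 98 and 121 reads in NOD.B10 and 149 and 158 reads in BL/10. P2ry13, an ADP receptor gene that lies between P2ry12 and P2ry14 and was picked after its values were seen, had 16 and 12 reads in NOD.B10 and 28 and 80 reads in BL/10, and was not called (log2 fold change −1.65, edgeR adjusted p = 0.130). It was called in 3 of 11 alternatives, with no filter (adjusted p = 0.0472) and on leaving out the first NOD.B10 (−2.10, adjusted p = 0.0275) or the first BL/10 library (−2.26, adjusted p = 0.0397), and stood at −0.56 when the second BL/10 library was left out.

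Adora2a (chromosome 10, 75316877 to 75334792) encodes the adenosine receptor that is the main route by which adenosine quiets T cells. It had 20.3 and 18.1 CPM in the NOD.B10 libraries, against 29.3 and 24.3 CPM in the BL/10 libraries. Both NOD.B10 values lay below both BL/10 values, with the libraries of each strain apart by less than the difference between the means. The BL/10 libraries still differed from each other by more than the nearest values of the 2 strains did. It missed the threshold, with a log2 fold change of −0.48 (SE 0.170, edgeR adjusted p = 0.0767). It passed in 2 of the 12 alternatives, with no filter (adjusted p = 0.0451) and without the second BL/10 library (log2 fold change −0.62, adjusted p = 0.0387). The lower T cell markers of NOD.B10 apply here as well, and their part was not tested.

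Ada (chromosome 2, 163726571 to 163750239) encodes the enzyme whose loss removes lymphocytes in humans and mice. It had 29.6 and 19.6 CPM in the NOD.B10 libraries, from 572 and 501 reads, against 12.2 and 15.6 CPM in the BL/10 libraries, from 360 and 403 reads. The strains did not overlap, though the lower NOD.B10 library was nearer to BL/10 than to the other NOD.B10 library. Ada was 1.77-fold higher, a log2 fold change of 0.82 (SE 0.222, edgeR adjusted p = 0.0263). The call rested on the first library of each strain: leaving out that of NOD.B10 gave 0.49 (adjusted p = 0.219) and leaving out that of BL/10 gave 0.65 (adjusted p = 0.0826). Ada is also expressed in T cells, whose markers were lower in NOD.B10, and their part in the Ada level was not tested.

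**Figure D3:**
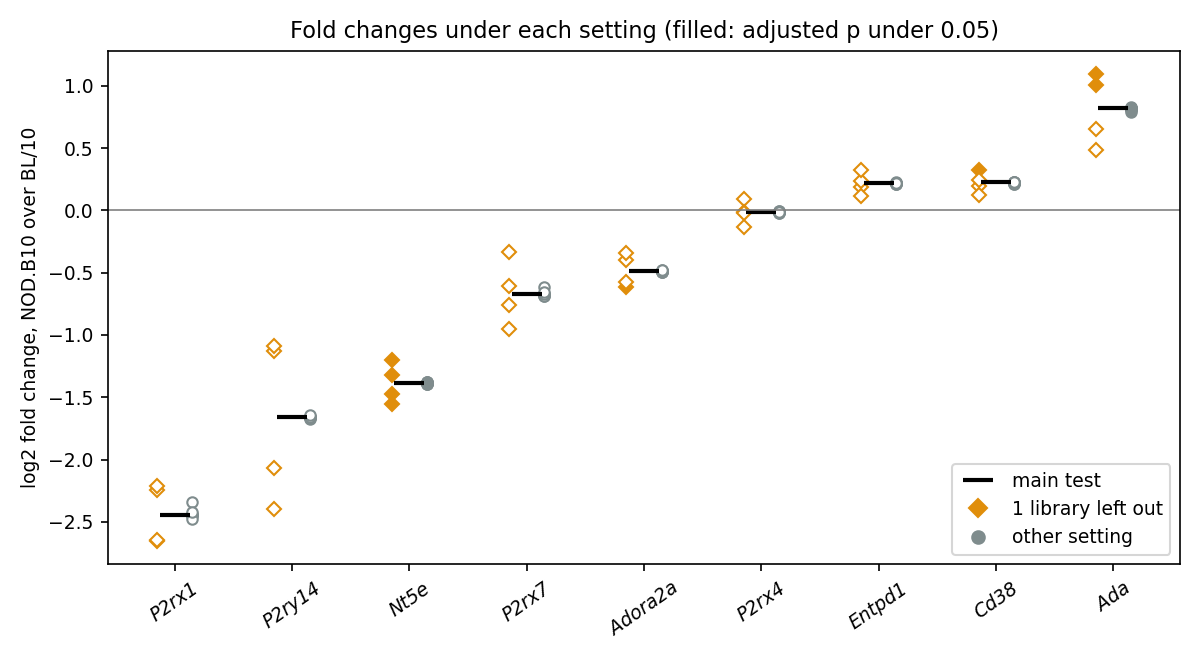
Log2 fold change (NOD.B10 over BL/10) of the 9 tested genes in the test as reported (black line), with 1 library left out (diamonds) and under the other settings (circles). Filled symbols have an adjusted p under 0.05. Nt5e stays between −1.55 and −1.20 and is called throughout, Ada ranges from 0.49 to 1.09, and P2rx1 from −2.65 to −2.21 with most symbols open.

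To compare levels between genes, CPM were divided by the gene length in kilobases given in the deposited table. On this scale Cd38 led in both strains, at 133 ± 2.03 CPM per kilobase in NOD.B10 and 114 ± 11.2 in BL/10 (SD, n = 2 each). P2rx4 came next, at 23.2 ± 2.62 in NOD.B10 and 23.4 ± 0.0295 in BL/10. In NOD.B10 the next genes were Ada at 14.5 ± 4.16 and Entpd1 at 12.9 ± 0.253, whose libraries overlapped, followed by Adora2a at 7.58 ± 0.609, Nt5e at 1.37 ± 0.110 and P2rx7 at 0.681 ± 0.0531. In BL/10 the next genes were Entpd1 at 11.1 ± 1.15 and Adora2a at 10.6 ± 1.39, whose libraries overlapped, followed by Ada at 8.15 ± 1.44, Nt5e at 3.57 ± 0.600 and P2rx7 at 1.09 ± 0.328. Ada therefore stood above Adora2a in the NOD.B10 libraries and below it in the BL/10 libraries. P2ry14, P2rx1 and P2ry12 were the lowest in both strains, all under 1 CPM per kilobase. In NOD.B10 the libraries of P2rx1 and P2ry12 overlapped, and in BL/10 those of P2rx7 and P2ry14 and those of P2ry14 and P2rx1 did.

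A wider list of 53 purinergic genes, sorted by role and holding the 10 genes above, placed them in the pathway. Of these, 34 were tested. In NOD.B10, 3 of them were higher, 6 were lower and 25 were not called, and the median log2 fold change was −0.10. Without the 10 genes there were 2 higher and 4 lower among 25 tested. Over all 13075 genes tested, 15.2% were called, with 6.55% higher and 8.63% lower.

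The genes that act on NAD and ADP-ribose held the 2 lowest log2 fold changes among the 34. Of 6 tested, 1 was higher and 2 lower. Art2b encodes a surface ADP-ribosyltransferase of mouse T cells that modifies P2X7. It had 2 and 2 reads in NOD.B10 and 57 and 74 reads in BL/10, 26.5-fold lower (95% counting interval 10.1 to 98.7, edgeR adjusted p = 6.71e-04). Its neighbour Art2a-ps, a related gene whose reads may in part be split with Art2b, had 0 and 2 reads in NOD.B10 and 21 and 21 reads in BL/10 (16.99-fold lower, counting interval 4.42 to 145, edgeR adjusted p = 0.0244), a call lost in 5 of its 11 alternatives. Both fell in the libraries in which all 13 T cell markers were lower, and the part of T cells was not tested. Art4, which encodes the Dombrock blood group protein, rose to 7.53 ± 0.631 CPM in NOD.B10, against 2.78 ± 0.678 CPM in BL/10 (log2 fold change 1.44, SE 0.316, edgeR adjusted p = 0.00739). Of 5 erythroid markers 3 were lower, with sums of 11.2 and 6.34 CPM in NOD.B10 and 188 and 299 CPM in BL/10. Other cell types of the node gave 5 of 5 tested natural killer cell markers lower, 3 of 9 tested macrophage and dendritic cell markers lower, and 1 of 3 tested stromal and endothelial markers higher.

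Of 5 tested ectoenzymes that degrade nucleotides, 1 was higher and 1, Nt5e, lower. The higher one was Acpp, an acid phosphatase that also makes adenosine from AMP on mouse sensory neurons, at 10.9 ± 0.190 CPM in NOD.B10 and 4.62 ± 0.424 CPM in BL/10 (log2 fold change 1.24, SE 0.249, edgeR adjusted p = 0.00429). Per kilobase this is 1.83 CPM in NOD.B10 and 0.776 CPM in BL/10, above Nt5e in NOD.B10 and below it in BL/10. Enpp1, a pyrophosphatase that splits ATP, was not called, at 74.3 ± 6.97 CPM in NOD.B10 and 62.2 ± 8.98 CPM in BL/10. Alpl, the tissue-nonspecific alkaline phosphatase and picked after its values were seen, had 13 and 0 reads in NOD.B10 and 97 and 95 reads in BL/10, and was not called (log2 fold change −3.47, edgeR adjusted p = 0.0716), with the NOD.B10 libraries unlike each other. It was called lower in 5 of 12 alternatives: with no filter (adjusted p = 1.29e-07), with limma-voom (adjusted p = 0.0154), with non-robust dispersion (adjusted p = 0.0244), on dropping the first NOD.B10 library, which leaves 0 reads in that strain (adjusted p = 5.91e-12), and on dropping the second (log2 fold change −2.36, adjusted p = 0.00104).

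Among 9 genes of adenosine clearance, Ada was the 1 higher and 2 were lower. Slc28a2, which encodes a concentrative transporter that brings adenosine and other purine nucleosides into the cell, fell to 65.5 ± 3.38 CPM in NOD.B10, against 108 ± 8.998 CPM in BL/10 (log2 fold change −0.72, SE 0.119, edgeR adjusted p = 0.00105). Pnp, the phosphorylase that acts on inosine after adenosine deaminase, fell to 14.9 ± 0.132 CPM in NOD.B10, against 25.1 ± 0.242 CPM in BL/10 (log2 fold change −0.75, SE 0.166, edgeR adjusted p = 0.00798). Pnp has a near-identical copy, Pnp2, and reads may be split between them. Pnp2 had 9 and 36 reads in NOD.B10 and 2 and 6 reads in BL/10 and was not called (log2 fold change 2.66, edgeR adjusted p = 0.0665). The part of the lower T cell markers of NOD.B10 in the falls of Slc28a2 and Pnp was not tested. Dpp4, the surface protein CD26 that binds adenosine deaminase in humans, was not called, at 190 ± 8.44 CPM in NOD.B10 and 197 ± 22.8 CPM in BL/10.

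The remaining roles held no call outside P2rx1. Of the 7 P2X genes 4 were tested, and of the 8 P2Y genes with counts 3 were, the most abundant being P2ry10, a lipid receptor of the P2Y family, at 321 ± 14.3 CPM in NOD.B10 and 286 ± 7.20 CPM in BL/10 (edgeR adjusted p = 0.326). Of 4 adenosine receptor genes 3 were tested and 0 called. Unlike Adora2a, the genes Adora2b and Adora3, picked after their values were seen, leaned higher at low counts. Adora2b had 26 and 18 reads in NOD.B10 and 16 and 12 reads in BL/10 (log2 fold change 1.00, edgeR adjusted p = 0.395). Adora3 had 14 and 23 reads in NOD.B10 and 10 and 9 reads in BL/10 (log2 fold change 1.24, edgeR adjusted p = 0.302). Of 8 ATP release genes 4 were tested and 0 called. Among them was Calhm2 of the CALHM channel family, at 166 ± 11.1 CPM in NOD.B10 and 160 ± 14.2 CPM in BL/10 (edgeR adjusted p = 0.831). Panx1, picked after its values were seen, leaned higher, with a mean of 48.4 CPM in NOD.B10 and 36.2 CPM in BL/10. Both NOD.B10 libraries lay above both BL/10 libraries. The difference narrowly missed the threshold (log2 fold change 0.42, SE 0.138, edgeR adjusted p = 0.0589).

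**Figure D4:**
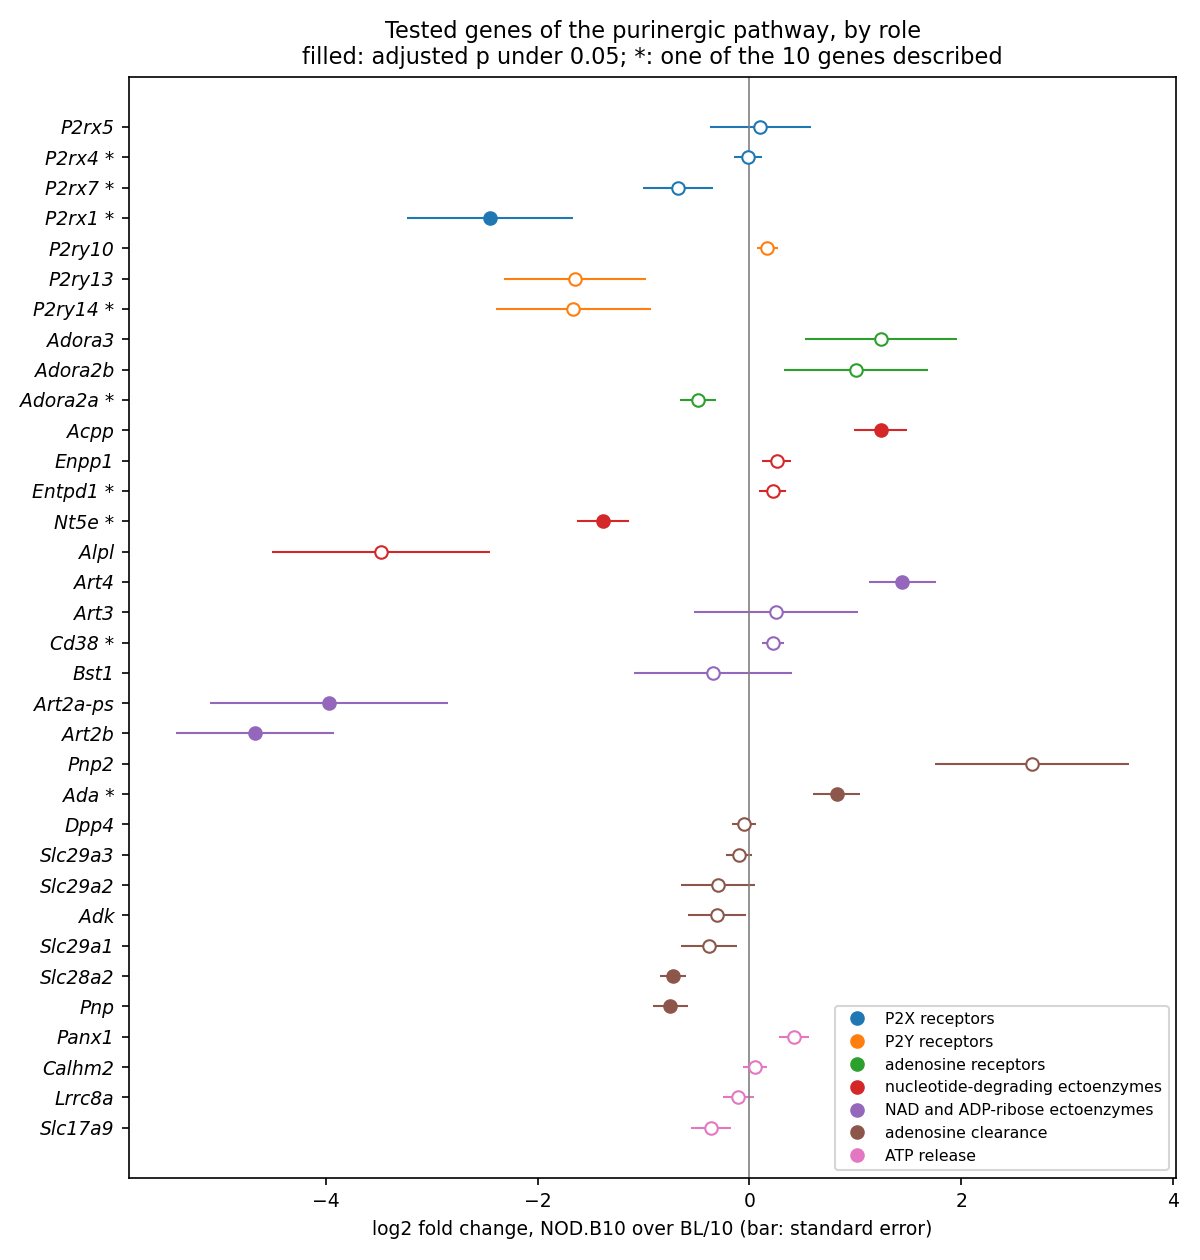
Log2 fold change (NOD.B10 over BL/10) with its standard error for the 34 tested genes of the purinergic list, grouped and coloured by role. Filled points have an adjusted p under 0.05, and stars mark the genes described one by one. The 3 filled points to the right are Acpp, Art4 and Ada, and the 6 to the left are Art2b, Art2a-ps, P2rx1, Nt5e, Pnp and Slc28a2.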

How the data were processed

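The authors deposited 1 table of raw read counts per gene symbol with gene lengths, for 4 libraries. Per the submitters' processing notes, HISAT2 2.1.0, SAMtools 1.3, Subread 1.6.5 and featureCounts were used, with build mm10. Libraries of both strains thus share this reference, and any effect of NOD sequence differences on the counts was not tested. Gene annotation, strand setting and treatment of multiply aligned reads are not given in the sources used here. Columns were matched to samples by library name.

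All genes were fitted together with edgeR 4.0.16 under R 4.3.3, by the robust two-sided quasi-likelihood test on TMM-normalised counts, after filterByExpr (count at least 10, total at least 15). The SE of a fold change is its unshrunken size divided by the root of the F value. Counting intervals are exact 95% binomial intervals on summed counts and cover counting error only. Replicates of a strain differed by more than sampling noise. The fit was tested on simulated data. Alternatives were other scaling factors and filters, DESeq2 1.42.0, limma-voom (limma 3.58.1), non-robust dispersion, a replicate block and each library left out.

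The 10 genes and all lists were chosen with earlier results of these data known. The genes named beside the 10 are every called gene of the wider list and the gene with most reads among those not called in each role. Exceptions are P2ry13, Alpl, Panx1, Adora2b and Adora3, picked after their values were seen, and Pnp2, named as the copy of Pnp. Panx1, Adora2b, Adora3 and Pnp2 were not followed through the alternatives. Gene coordinates and promoter windows are from NCBI RefSeq on GRCm38.p6, which corresponds to mm10, and overlaps between genes are from GENCODE M21. The windows are thus sequence of that build, not of the NOD genome.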

Additional observations from a re-analysis of the deposited data

How the results depend on the processing

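Nt5e kept its direction and its call in all 12 alternatives. Of the 10 genes, 2 were called lower in the test as reported and 1 with upper-quartile factors, with the stricter minimum count of 30, under which P2rx1 was not tested, with DESeq2, with limma-voom and with a replicate block. With 1 library left out, 1 to 2 were called lower and 0 to 1 higher. Where 2 were still called with no filter or without the second BL/10 library, the genes were Nt5e and Adora2a, with P2rx1 no longer called (adjusted p = 0.0610 and 0.159). The labels do not say whether same-numbered libraries were handled together. Their deviations from the strain means had a correlation of −0.0169 over 13075 genes, a single value that cannot settle this. With the replicate block, 760 genes were called higher and 1042 lower, against 857 and 1129 without it, and P2rx1 (adjusted p = 0.103) and Art2a-ps (adjusted p = 0.0548) lost their calls. The sign turned in 4 values of genes that were not called: with 1 library left out, the log2 fold change of P2rx4 ranged from −0.13 to 0.088 (above 0 when the first NOD.B10 library was dropped), that of Calhm2 from −0.038 to 0.15 (−0.025 when that library was dropped, and lowest without the second BL/10 library) and that of Dpp4 from −0.17 to 0.069 (positive without the first BL/10 library). The cause of these changes was not tested. Over all genes, leaving out 1 library gave 586 to 960 called higher and 1009 to 1228 called lower. Depth limits P2rx1, P2ry12, P2ry14 and the Art2 genes, with 2 to 17 reads in NOD.B10 in all.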
